A study of Homo sapiens with 5 samples.

Results

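Many human genes cannot be told apart by an array probe, because they are near-identical copies, lie inside each other, or are joined in a common transcript. The probes described here are the 1737 of 33297 rows of the value table whose platform annotation names 2 or more gene symbols, with 17 further such probes left out by rule because they carry a HOXA, SNORD115 or SNORD116 symbol. Another 19460 probes name exactly 1 gene and 12083 have no symbol. A probe here is a row of the table, which summarises several short oligonucleotides of a whole-transcript array, and the symbols it names are joined with a slash. The cells were RS4.11 (RS4;11), an established human leukemia line with a rearranged MLL gene, which the series names as its model. They were grown in vitro for 20 h either with the solvent DMSO (control, 2 arrays) or with 10 uM SB216763, an inhibitor of the kinase GSK-3 (3 arrays), and the study asked what inhibiting GSK-3 does to such cells. The labels do not tell whether arrays of a group stem from separate cultures, so that p-values rest on the spread among these 5 arrays, possibly technical.

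Most of the shared names come from 3 arrangements. Paralogues are copies of a gene made by duplication, and recent copies, often with pseudogenes that no longer code for protein, can be so alike that the same oligonucleotides bind the RNA of all of them. Small nucleolar RNAs (snoRNAs), which guide the chemical modification of ribosomal RNA, and many microRNAs, which repress messenger RNAs through a short seed, are cut out of the introns or exons of longer host transcripts. Readthrough genes are annotated where transcription runs past the end of a gene into its neighbour, which gives a joined transcript named after both, such as ARPC4-TTLL3. GSK-3 phosphorylates many proteins, beta-catenin and MYC among them, and marks them for degradation.

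Sequences of the strongest decrease and of the copies that lead the paralogue class are shown first, to show how alike copies can be. The oligonucleotide sequences of the array were not used here, so what each probe binds was not checked. Upstream bases lie outside the transcript that a probe measures. They are RefSeq sequences on GRCh38.p14. The probe MIR155/MIR155HG names a microRNA and its host transcript, and its 2 mature arms lie at chr21:25573983-25574006 and chr21:25574022-25574043 on the plus strand. Capitals mark the seed, bases 2 to 8.
hsa-miR-155-5p: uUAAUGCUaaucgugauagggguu
hsa-miR-155-3p: cUCCUACAuauuagcauuaaca
All 34 microRNA symbols on these probes had an entry, with 58 mature sequences and 51 distinct seeds. The X-linked copies MIR105-1 and MIR105-2 have 5p arms that are the same letter for letter.
hsa-miR-105-5p: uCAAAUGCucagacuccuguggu

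HSPA1A and HSPA1B encode the stress-induced chaperone HSP70 and are named together on 5 probes. The 250 bases before their starts, at chr6:31815293-31815542 and chr6:31827488-31827737 on the plus strand, are alike at 235 of 251 aligned positions (93.6%). Capitals mark the 8 letters GAANNTTC, the core of the heat shock element, which reads the same on both strands.
HSPA1A: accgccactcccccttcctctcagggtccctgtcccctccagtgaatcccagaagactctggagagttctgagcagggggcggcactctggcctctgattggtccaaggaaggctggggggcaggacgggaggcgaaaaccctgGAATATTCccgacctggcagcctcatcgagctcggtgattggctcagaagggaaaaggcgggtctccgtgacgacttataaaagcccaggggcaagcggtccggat
HSPA1B: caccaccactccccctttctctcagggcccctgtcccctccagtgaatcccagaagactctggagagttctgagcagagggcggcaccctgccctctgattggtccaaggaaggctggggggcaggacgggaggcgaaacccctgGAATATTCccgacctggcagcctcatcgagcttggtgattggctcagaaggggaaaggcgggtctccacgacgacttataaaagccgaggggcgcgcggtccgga
Each holds the motif once, as do 5.78% of 35116 upstream windows of the same length at least once. A match is a description of the letters, not of binding.

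The amylase genes cut starch into sugars, in saliva (AMY1) and in the pancreas (AMY2). Copies AMY1A, AMY1B and AMY1C have the same 250 upstream bases without a difference, so the sequence is given once, from AMY1A at chr1:103655510-103655759 on the plus strand. AMY2A (chr1:103617177-103617426) and AMY2B (chr1:103571339-103571588) match each other at 94.0% of 252 aligned positions. None of the 5 windows holds GAANNTTC.
AMY1A: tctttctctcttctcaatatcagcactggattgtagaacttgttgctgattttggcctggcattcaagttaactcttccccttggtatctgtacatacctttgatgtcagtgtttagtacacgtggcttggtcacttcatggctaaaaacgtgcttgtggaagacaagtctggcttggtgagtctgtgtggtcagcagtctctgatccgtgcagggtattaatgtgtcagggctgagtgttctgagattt
AMY2A: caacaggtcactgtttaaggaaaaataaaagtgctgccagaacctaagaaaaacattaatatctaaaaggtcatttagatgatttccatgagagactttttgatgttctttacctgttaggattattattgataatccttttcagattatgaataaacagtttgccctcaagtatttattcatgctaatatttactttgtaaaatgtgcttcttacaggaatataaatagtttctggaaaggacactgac
AMY2B: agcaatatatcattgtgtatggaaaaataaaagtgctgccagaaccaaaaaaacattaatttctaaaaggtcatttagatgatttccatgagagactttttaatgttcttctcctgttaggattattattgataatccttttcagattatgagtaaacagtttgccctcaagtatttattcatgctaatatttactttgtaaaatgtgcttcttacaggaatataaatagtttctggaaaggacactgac

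With SB216763, 120 of the 1737 probes naming several genes were higher and 35 lower by limma's moderated test, at an adjusted p under 0.05 over all 33297 probes. That is 6.91% higher and 2.01% lower, against 3.49% and 2.24% of all probes, and 3.83% and 3.06% of the probes naming exactly 1 gene. In either direction it was 8.92%, against 5.73% of all probes and 6.89% of the probes naming exactly 1 gene. The median difference, SB216763 minus control on the log2 scale, was 0.03 over these probes and 0.01 over all probes. Values of the 2 groups did not overlap for 775 of them (44.6%, against 37.8% of all probes and 41.4% of those naming exactly 1 gene). At an unadjusted p under 0.05, 329 were higher (18.9%, against 12.7% of all probes) and 157 lower (9.04%, against 9.01%). All values below are log2 expression values as deposited, on which a difference of 1 is a 2-fold change. In RNA of whole cultures, fewer cells of a kind and less RNA per cell cannot be told apart.

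Probes that share names are not independent measurements. The 1737 probes carry 1000 distinct sets of symbols and fall into 692 families linked by a shared symbol, from single probes (297 families) to 22 probes. Values identical on all 5 arrays recur in 333 of them, so that 1546 distinct rows of values remain. Counted by distinct rows, 114 were higher and 33 lower; counted by family, 44 families held a probe that was higher and 20 a probe that was lower. No call was made on any probe that stayed below background on all arrays, where background is the 95th percentile of 381 olfactory receptor probes on the same array, and 147 of the 155 called probes were above it on all 5 arrays. Over all 1737 probes, 1174 were above background on all arrays and 460 on none.

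These counts rest on few arrays. Without control replicate 1, control replicate 2 or SB216763 replicate 1, the same fit called 0 of the 1737 probes, and without SB216763 replicate 3 it called 4 higher and 0 lower. Without SB216763 replicate 2 it called 115 higher and 20 lower. At an unadjusted p under 0.05 the counts without 1 array lay between 237 and 361 higher and between 105 and 174 lower. No called probe changed sign under median centring or quantile normalization of the arrays. The array medians differ little (6.77 to 6.84), so median centring could hardly change the sign of a called probe.

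Sorted by what the symbols share, 962 probes name paralogue copies, 260 a readthrough gene, 71 a host transcript with a small RNA and 32 copies of small RNAs. A further 57 name an antisense or long noncoding RNA, and 60 paralogues with placeholder names such as LOC numbers. Another 47 name a named gene with placeholders and 2 a cluster with shared exons. The other 246 fit none of these rules and are termed different names here. Related genes can be among the 246, such as zinc finger genes whose numbers differ, or the histone genes H3C4/H2AC7. Paralogue copies held 72 higher and 27 lower probes, 10.3% of the class, against 5.73% of all probes in either direction. Readthrough probes held 28 higher and 2 lower (11.5%). Host and small RNA probes held 1 of each (2.82%), and small RNA copies none. Different names held 13 higher and 2 lower (6.10%). Antisense or noncoding names held 2 higher and 1 lower (5.26%), and a named gene with placeholders 2 higher and 2 lower (8.51%). Paralogues with placeholder names held 2 higher and 0 lower (3.33%).

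The symbols of a paralogue probe mostly lie apart in the genome. By RefSeq position, 539 of the 962 paralogue probes name genes on the same chromosome but not adjacent, 260 name genes on different chromosomes, 146 neighbours and 14 overlapping genes. Readthrough names are the reverse, with overlapping genes on 201 of 260 probes. Among different names, 68 probes name genes on different chromosomes only, and 9 of these (13.2%) were higher and 0 lower. The 99 with overlapping or neighbouring genes held 2 higher and 1 lower (3.03%).

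Among paralogue copies, the stress chaperone HSP70 had the largest decreases. Probe 8179322 of HSPA1B/HSPA1A read 10.82 and 10.98 on the control arrays and 9.93, 9.86 and 9.95 on the SB216763 arrays. Every treated array lay below every control array, a difference of -0.99 (SE 0.09, adjusted p = 0.0084), or 1.99-fold lower. The other 4 probes of the 2 genes, which include a pair with identical values, differed by -0.99, -0.86, -0.86 and -0.85, and all 5 were called lower. The related HSPA7/HSPA6 probe read 9.80 and 9.39 in controls and 9.64, 9.89 and 9.62 with SB216763, with overlapping groups and a difference of 0.12 (SE 0.15, adjusted p = 0.74). Of the 12 probes naming a heat shock or DNAJ gene, these 5 were lower (41.7%, against 2.24% of all probes) and none was higher. The 5 all name the same 2 genes. Among 87 probes naming exactly 1 heat shock or DNAJ gene, 3 were higher and 5 lower, with a median of -0.07.

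NCF1, a cytosolic subunit of the phagocyte NADPH oxidase that makes superoxide, is flanked in the genome by its pseudogenes NCF1B and NCF1C. Probe 8133314 of NCF1C/NCF1B/NCF1 read 9.61 and 9.65 in controls and 8.84, 8.95 and 8.91 with SB216763. The groups were well apart, with a difference of -0.73 (SE 0.08, adjusted p = 0.013), and the other 2 probes fell by 0.71 and 0.70. FABP5P3/FABP5, a fatty acid binding protein and its processed copy, read 9.98 and 10.11 in controls and 9.20, 8.98 and 9.38 with SB216763 on probe 7948420. That is a difference of -0.86 (SE 0.13, adjusted p = 0.028), and the second probe gave the same difference to 2 decimals.

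The GOLGA8 family, copies of a Golgi autoantigen gene, spans 22 probes, all above background on all arrays, of which 4 were lower and 0 higher. The lowest, probe 7982256 of GOLGA8R/GOLGA8O/GOLGA8N/GOLGA8IP, read 11.88 and 11.93 in controls and 11.16, 11.07 and 11.20 with SB216763, a difference of -0.76 (SE 0.08, adjusted p = 0.013). Over the whole family, differences ran from -0.76 to 0.17 with a median of -0.20, and 2 of 22 were above 0.

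The glycolytic enzyme PGAM1 with PGAM4 was lower on 3 of 5 probes, with differences from -0.42 to -0.33 over the 5. EIF5A, the translation factor that carries hypusine, with EIF5AL1 was lower on 2 of 3 probes (-0.48 to -0.47 over the 3). The mitochondrial import channel TIMM23 with TIMM23B was lower on both probes (-0.54 and -0.53). ATAD3C/ATAD3B/ATAD3A, a mitochondrial ATPase, differed by -0.59 and AHCTF1P1/AHCTF1, a nuclear pore protein, by -0.51, each on 1 called probe of 2. The SMN2/SMN1 probes, for the gene lost in spinal muscular atrophy, read 9.77 and 9.95 in controls and 9.70, 9.50 and 9.75 with SB216763 on probe 8105958, with a difference of -0.21 that did not pass (SE 0.11, adjusted p = 0.36).

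IGLL3P/IGLL1, the surrogate light chain of B cell precursors, read 8.57 and 8.54 in controls and 7.90, 7.98 and 7.78 with SB216763, a difference of -0.67 (SE 0.09, adjusted p = 0.020). A probe of IGLL1 alone differed by -0.33 (adjusted p = 0.36). FCGR1CP/FCGR1BP/FCGR1A, the high-affinity IgG receptor, differed by -0.49 on its called probe. MS4A14/MS4A7, of a family of membrane proteins of blood cells, rose by 0.65 (SE 0.09, adjusted p = 0.023). The chemokine probes CCL3L3/CCL3L1/CCL3 all carried the same row of values, 7.60 and 7.94 in controls and 7.89, 7.70 and 7.66 with SB216763, and did not separate (difference -0.02, SE 0.13).

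The largest increases were at the amylase cluster. Probe 7903414 of AMY2B/AMY2A/AMY1C/AMY1B/AMY1A read 7.45 and 7.48 in controls and 8.81, 8.69 and 8.85 with SB216763. The treated arrays were all more than 1 log2 unit above both controls, with a difference of 1.32 (SE 0.08, 95% interval 1.11 to 1.52, adjusted p = 0.0067), or 2.49-fold. Probe 7903425 read 6.87 and 6.74 in controls and 8.02, 7.82 and 7.94 with SB216763 (difference 1.13), and 2 further probes carried those same values. The adjacent probe RNPC3/AMY2B, which also names a protein of the minor spliceosome, read 6.88 and 7.04 against 8.17, 7.83 and 8.32. It differed by 1.14 (SE 0.16, adjusted p = 0.022), while 2 probes of RNPC3 alone differed by 0.55 and 0.39. The gap to these did not pass the test of probe pairs described further on (adjusted p = 0.074 and 0.055).

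TBC1D3, a hominoid-specific family that encodes modulators of growth factor receptor trafficking, had 11 probes, all distinct in value, and 10 were higher. Probe 8006746, which names 12 TBC1D3 symbols, read 8.97 and 8.91 in controls and 9.82, 9.73 and 9.80 with SB216763, a difference of 0.85 (SE 0.08, adjusted p = 0.0090). The family's differences ran from 0.51 to 0.85 with a median of 0.79, and all 11 probes had non-overlapping groups (against 37.8% of all probes). NPIP, the nuclear pore interacting family of chromosome 16, was higher on 16 of 20 probes, with differences from 0.41 to 0.73 and a median of 0.54. In this family 14 of the called probes fall in the readthrough class, because PKD1P6-NPIPP1 or PDXDC2P-NPIPB14P is among their names, although their symbols are paralogues.

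HERC2 with its pseudogenes was higher on all 5 probes, LRRC37A on 6 of 7, WASHC2A/WASHC2C on all 4 and GTF2IRD2B/GTF2IRD2 on both. HERC2 is a large ubiquitin ligase, and probe 7986569 of HERC2P4/HERC2P9/HERC2P2/HERC2P3/HERC2 read 10.47 and 10.53 in controls and 11.30, 11.26 and 11.26 with SB216763. Its difference of 0.77 (SE 0.07, adjusted p = 0.010) lay within a family range of 0.71 to 0.81. LRRC37A, leucine-rich repeat genes of chromosome 17, ranged from 0.60 to 0.74, and WASHC2, a subunit of the endosomal actin regulator WASH, from 0.61 to 0.68. GTF2IRD2, of the TFII-I group of transcription factors in the Williams syndrome region, differed by 0.72 and 0.69. ANKRD20A probes were dim: 6 of 9 were called higher, but only 2 of 9 were above background on all arrays. Probe 8155602 read 6.13 and 6.26 in controls and 7.17, 6.95 and 7.39 with SB216763 (difference 0.98, SE 0.14, adjusted p = 0.025), with 1 control array above background.

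Other duplicated families of similar make-up showed no call. The larger NBPF family, of DUF1220 repeat genes, had 15 probes with the same set of names and differences from 0.24 to 0.39. All had non-overlapping groups (against 37.8% of all probes). At an unadjusted p under 0.05, 12 were higher (against 12.7% of all probes), and 0 passed the adjusted threshold. GUSBP, copies of beta-glucuronidase, had 14 probes between 0.25 and 0.42, all at an unadjusted p under 0.05 and 0 called. PMS2 pseudogenes (15 probes, -0.07 to 0.17), SPDYE (16 probes, 0.01 to 0.21), RANBP2 with RGPD (8 probes, -0.03 to 0.04) and PPIA with PPIAL4 (8 probes, 0.01 to 0.08) lay near 0. USP17L copies, 15 probes with 8 distinct rows of values, differed by -0.27 to 0.09. Over the list of segmental duplication families, 176 probes in 16 families held 32 higher (18.2%, against 3.49% of all probes) and 4 lower (2.27%, against 2.24%), with a median of 0.13. All 32 were in 3 families, with 16 in NPIP, 10 in TBC1D3 and 6 in ANKRD20A.

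Probes naming a ribosomal protein gene held many of the increases. Some name gene copies, and 17 name overlapping genes, such as RPL17-C18orf32/RPL17. Of 56 probes naming an RPL or RPS gene, all were above background on all arrays, 21 were higher (37.5%, against 3.49% of all probes) and 0 lower, and the median difference was 0.38. Array weights called 41 higher, trend and robust settings 39, either filter on probes 38 and no moderation 1. Under quantile normalization it was 23 higher and 1 lower, with a median of 0.29. Without SB216763 replicate 2, 18 were higher, and without any other array 0 were, with medians of 0.32 to 0.43. Among 120 probes naming exactly 1 ribosomal protein gene, 25 were higher and 0 lower, with a median of 0.29. RPL21 with its pseudogenes, a protein of the large subunit, was higher on all 5 probes (0.59 to 0.78). Probe 7999360 read 11.19 and 11.20 in controls and 12.08, 11.82 and 12.03 with SB216763. RPL23A with its pseudogenes was higher on 6 of 7 probes (0.34 to 0.66), and ZNF320/RPS27/RGS4 on both of its probes (0.63 and 0.65), at 11.79 and 11.82 against 12.42, 12.48 and 12.39 on probe 7905691. RPL9P11/RPL9 (0.29 to 0.32 on its 4 probes) and RPL6P27/RPL6 (0.18 and 0.19) did not pass.

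Histone genes of the replication-dependent clusters supply chromatin in S phase. Of 28 probes naming a histone gene, 1 was higher (3.57%, against 3.49% of all probes) and 2 lower (7.14%, against 2.24%). At an unadjusted p under 0.05, 12 of the 28 were lower, against 9.01% of all probes, and the median was -0.15. Trend and robust settings, array weights and either filter on probes each gave 10 lower, and no moderation 0. Quantile normalization gave 6 lower and median centring 8, and leaving out any 1 array gave 0 lower. Among 73 probes naming exactly 1 histone gene, 0 were higher and 19 lower, with a median of -0.28. H3C4/H2AC7 read 10.75 and 10.80 in controls and 10.35, 10.35 and 10.15 with SB216763 (difference -0.49, SE 0.09, adjusted p = 0.045). H3C13/H3C15/H3C14, identical histone H3 genes of chromosome 1, read 11.18 and 11.29 against 10.84, 10.97 and 10.70 on probe 7919612 (difference -0.40, SE 0.11, adjusted p = 0.095), and its 4 probes differed by -0.40 to -0.29 with none called.

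The same 2 histone names gave opposite calls on different probes. H2BC18/H2BP1 was lower on probe 7904465, at 11.62 and 11.64 in controls and 11.28, 11.22 and 11.25 with SB216763 (difference -0.38, SE 0.07, adjusted p = 0.044). Probe 7919584 with these same names was higher, at 8.28 and 8.23 in controls and 9.13, 8.73 and 9.06 with SB216763 (difference 0.72, SE 0.14, adjusted p = 0.043). The groups did not overlap on either probe, so a shared name did not fix the direction of the measurement.

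HLA genes present peptides to T cells. All 6 probes naming HLA-B with HLA-C or HLA-F were higher, with differences from 0.51 to 0.61. On probe 8178498 HLA-C/HLA-B read 12.28 and 12.36 in controls and 12.85, 12.81 and 12.84 with SB216763. The class II probes HLA-DRA/HLA-DQA1 were higher on all 3 (0.45, 0.48 and 0.52). No call was made for HLA-DQB2/HLA-DQB1 or for the HLA-DRB probes, whose 8-probe family ranged from -0.03 to 0.20. Among 55 probes naming an antigen receptor, KIR, LILR or HLA gene, 9 were higher (16.4%, against 3.49% of all probes). Only 1, IGLL3P/IGLL1, was lower (1.82%, against 2.24%). The 9 all lay in the 2 HLA families just named, and the median over the 55 was 0.04. The 14 probes of the immunoglobulin heavy chain family lay between -0.12 and 0.15 with no call.

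The lower call among host and small RNA probes was MIR155/MIR155HG. This host transcript, formerly called BIC, gives miR-155, a microRNA of activated lymphoid and myeloid cells. Its probe read 7.45 and 7.72 in controls and 6.56, 5.93 and 6.24 with SB216763, the largest decrease of all 1737 probes. The difference was -1.34 (SE 0.20, 95% interval -1.82 to -0.86, adjusted p = 0.025), or 2.53-fold lower, and the second treated array was below background. The probe does not separate the microRNA from its host. No other of the 24 probes naming a host with a microRNA was called, and 16 of the 24 were below background on all arrays. Among those above background on all arrays, MIRLET7B/MIRLET7BHG read 7.45 and 7.18 in controls and 7.18, 7.21 and 6.99 with SB216763 (difference -0.19, SE 0.12, adjusted p = 0.44).

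Host transcripts with snoRNAs gave 0 calls by limma in 45 probes, against 5.73% of all probes, and a median of 0.16. At an unadjusted p under 0.05, 12 were higher and 3 lower, against 12.7% and 9.01% of all probes. SNHG1, a noncoding host whose introns carry a run of snoRNAs, is named on 6 probes with differences from -0.05 (SNORD26) to 0.29 (SNORD29). SNHG1/SNORD26 read 10.77 and 10.90 in controls and 10.90, 10.54 and 10.91 with SB216763, with overlapping groups. GAS5, a growth-arrest host transcript of the same kind, differed by 0.38 with SNORD47, 0.16 with SNORD80 and 0.22 with SNORD76, none past the threshold (adjusted p = 0.36, 0.74 and 0.25). SB216763 replicate 2 read lowest of the treated arrays on all 9 SNHG1 and GAS5 probes, and on 42 of the 59 probes naming a snoRNA (71.2%), against 38.2% of all probes. Without that array, the 59 snoRNA probes had 2 higher and 0 lower, against 1079 and 441 of all 33297 probes, and a median of 0.21 in place of 0.12. At an unadjusted p under 0.05 it was 25 higher and 2 lower, against 4825 and 3237 of all 33297 probes. Array weights called 9 of the 59 higher and 2 lower, and trend and robust settings 7 and 2. The cause of its lower readings was not tested.

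Hosts that encode ribosomal proteins or nucleolar factors showed a similar spread. SNORD72/RPL37 read 10.00 and 10.10 in controls and 10.50, 10.37 and 10.55 with SB216763, a difference of 0.43 just short of the threshold (SE 0.09, adjusted p = 0.054). SNORA33/RPS12 differed by 0.48 (SE 0.12, adjusted p = 0.086) and SNORA70/RPL10 by 0.38 and 0.39 on 2 probes. TAF1D, a subunit of the RNA polymerase I selectivity factor whose introns hold snoRNAs, is named on 6 probes with differences from -0.09 (SNORD6) to 0.48 (SNORD5), and a probe of TAF1D alone differed by 0.62. SNORD56/NOP56, whose host is a core snoRNA protein, differed by -0.23 (SE 0.08, adjusted p = 0.18), and SNORA56/DKC1, whose host is the pseudouridine synthase dyskerin, by -0.36 (SE 0.15, adjusted p = 0.26). The groups overlapped for SNORA56/DKC1 and not for SNORD56/NOP56.

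SNORA48/EIF4A1 and SENP3-EIF4A1/EIF4A1 name the same translation helicase from different ends of its shared names. The first read 10.66 and 10.65 in controls and 10.91, 11.05 and 11.00 with SB216763 (difference 0.33, SE 0.08, adjusted p = 0.076). The second read 11.61 and 11.60 in controls and 11.45, 11.35 and 11.41 with SB216763 (difference -0.20, SE 0.08, adjusted p = 0.195). Neither passed, and their groups separated in opposite directions.

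The only higher probe of the host and small RNA class names ribosomal RNA, which the rule placed there through RNA5-8SN5. Probe 8180193 of RNA28SN5/RNA18SN5/RNA5-8SN5 read 13.32 and 13.06 in controls and 13.82, 13.70 and 13.68 with SB216763 (difference 0.54, SE 0.11, adjusted p = 0.048). Probe 8180192 of the same names read 14.03 and 14.16 against 14.41, 14.32 and 14.35, near the top of the table's range of 1.95 to 14.84 (difference 0.26, SE 0.08, adjusted p = 0.14).

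Copies of small RNAs did not pass on any of 32 probes (0 called by limma, against 5.73% of all probes). At an unadjusted p under 0.05, 2 were higher and 0 lower, against 12.7% and 9.01% of all probes. The copies hold few distinct measurements, since 32 probes carry 18 distinct rows. U1 snRNA copies, which recognise the 5' splice site, differed by -0.07 to 0.07 over 9 probes and 3 distinct rows. The 5 SNORD3 (U3) probes, for the snoRNA that processes the ribosomal RNA precursor, shared a row of 10.84 and 10.84 in controls and 10.92, 11.13 and 10.74 with SB216763. RN7SL2/RN7SL1, the RNA of the signal recognition particle, read 13.46 and 13.68 against 13.79, 13.70 and 13.63 (difference 0.14, SE 0.10).

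Readthrough probes were sorted by the partner they name: a probe that names A-B and A is called upstream here, and a probe that names A-B and B downstream. The sorting uses the symbols alone, and where the probes lie in the genome or on the transcripts was not checked. Upstream partners held 5 higher (6.17%) and 2 lower (2.47%) of 81 probes, and downstream partners 4 higher (4.26%) and 0 lower of 94. Over all probes it was 3.49% higher and 2.24% lower. Without the NPIP probes, the class held 14 higher and 2 lower of 242 (6.61%), near the 5.73% of all probes.

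ARPC4-TTLL3 joins a subunit of the Arp2/3 actin nucleator to a tubulin glycine ligase, and its downstream probe rose while its upstream probe did not pass. ARPC4-TTLL3/TTLL3 read 8.24 and 8.32 in controls and 9.21, 9.35 and 9.21 with SB216763 (difference 0.97, SE 0.08, adjusted p = 0.0084). ARPC4-TTLL3/ARPC4 read 10.58 and 10.55 in controls and 10.67, 10.65 and 10.64 with SB216763 (difference 0.09, SE 0.07, adjusted p = 0.56). Tested within each array, the upstream probe changed by 0.89 less than the downstream one (SE 0.08, adjusted p = 0.023 by limma over 2885 probe pairs).

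RPL36A-HNRNPH2 joins a ribosomal protein to an RNA-binding protein and had its call on a probe naming the upstream partner. RPL36A-HNRNPH2/RPL36A read 10.19 and 10.19 in controls and 11.07, 11.02 and 11.18 with SB216763 (difference 0.90, SE 0.08, adjusted p = 0.0094). RPL36A-HNRNPH2/HNRNPH2 read 10.50 and 10.35 in controls and 10.28, 9.96 and 10.35 with SB216763, with overlapping groups (difference -0.23, SE 0.14, adjusted p = 0.42). The upstream probe exceeded the downstream one by 1.13 in its change (SE 0.11, adjusted p = 0.025). Their probe numbers, 8138361 and 8168852, lie far apart, and whether both probes lie at the joined locus was not checked. Both sides were tested as 85 pairs of probes over 61 readthrough genes, a test added after the data had been seen. These were the 2 pairs called, and 23 of the 85 pairs had an unadjusted p under 0.05. Over the 2800 pairs described further on it was 16.2%, and 20.9% over the 1242 of them that hold a probe described here. In 27 of the 61 genes all pairs of sides had opposite signs, which small differences can give. Some pairs repeat identical values, as for TRIM39-RPP21.

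CHURC1-FNTB joins a zinc-binding protein to the beta subunit of farnesyltransferase, and its sides did not pass. CHURC1-FNTB/CHURC1 read 8.51 and 8.85 in controls and 9.09, 8.79 and 9.25 with SB216763, and CHURC1-FNTB/FNTB read 8.22 and 8.17 against 7.74, 7.57 and 7.88. The gap in change was 0.82 (SE 0.13) and missed the threshold (adjusted p = 0.073). PMF1-BGLAP/PMF1, for a kinetochore protein upstream of osteocalcin, was lower (10.10 and 10.10 against 9.72, 9.61 and 9.57, difference -0.47, SE 0.08, adjusted p = 0.035). PMF1-BGLAP/BGLAP differed by -0.00 (SE 0.12), and the gap between the sides was -0.47 (SE 0.11, adjusted p = 0.15).

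NME1-NME2/NME1, a nucleoside diphosphate kinase, read 10.78 and 10.88 in controls and 10.34, 10.28 and 10.35 with SB216763 (difference -0.51, SE 0.08, adjusted p = 0.027). TMX2-CTNND1/CTNND1, the catenin p120, read 7.66 and 7.51 against 8.24, 8.26 and 8.25 (difference 0.66, SE 0.08, adjusted p = 0.016). CHKB-CPT1B/CPT1B/CHKB, a choline kinase joined to a carnitine transferase, rose by 0.62 (SE 0.09, adjusted p = 0.026). RPL17-C18orf32 was called on both named sides, at 0.60 for an RPL17 probe and 0.68 for the C18orf32 probe, and its other RPL17 probe differed by 0.54 (adjusted p = 0.065). Whether these RPL17 probes lie at the joined locus was likewise not checked. TRIM6-TRIM34/TRIM6/TRIM34, restriction factors of the TRIM cluster, was below background on both control arrays, so its rise is given as a difference of 0.56 in measured values. TNFSF12-TNFSF13/TNFSF12/TNFSF13, which names the cytokines TWEAK and APRIL, read 8.40 and 8.39 in controls and 8.46, 8.63 and 8.46 with SB216763 (difference 0.12, SE 0.09, adjusted p = 0.52).

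Probes of the class of different names held 13 higher and 2 lower of 246. ROS1, a receptor kinase, is named on 4 probes with EZR, CD74, SDC4 or SLC34A2 and LRIG3, genes known to be fused to it in tumours. EZR/ROS1 read 10.02 and 10.15 in controls and 9.38, 9.33 and 9.42 with SB216763 (difference -0.71, SE 0.08, adjusted p = 0.015), and CD74/ROS1 read 10.14 and 10.24 against 11.01, 10.84 and 10.91 (difference 0.73, SE 0.09, adjusted p = 0.016). Ezrin links membrane to actin, and CD74 is the invariant chain of HLA class II. The other 2 ROS1 probes were below background on all arrays and differed by 0.08 and -0.10. Probes joined by the ROS1 name therefore had calls in both directions.

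SNHG32/SVIL, a snoRNA host in the HLA region and the actin-binding supervillin, carried identical values on 2 probes. They read 9.68 and 9.63 in controls and 10.71, 10.70 and 10.77 with SB216763 (difference 1.07, SE 0.07, adjusted p = 0.0072). MYO18A/TIAF1, PPP1R3E/HOMEZ and DGLUCY/PIGF, each a set of genes under different names, rose by 0.66, 0.66 and 0.41. OR7E85BP/OR7E91P, olfactory receptor pseudogenes, read 7.74 and 7.88 in controls and 8.61, 8.60 and 8.79 with SB216763 (difference 0.86, SE 0.10, adjusted p = 0.015). It was the only call among 66 probes naming an olfactory receptor.

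Antisense and noncoding names gave 3 calls. MIF/MIF-AS1, the cytokine and its antisense transcript, read 11.63 and 11.76 in controls and 11.09, 11.19 and 11.03 with SB216763 (difference -0.59, SE 0.09, adjusted p = 0.026). LINC02802/LSP1P4/LSP1P5/LSP1, which includes an actin-binding protein of leukocytes and its copies, read 8.91 and 8.95 against 9.47, 9.38 and 9.37 (difference 0.48, SE 0.08, adjusted p = 0.030). The third, probe 8031992, names 10 noncoding genes, LINC01000, LINC01002 and LINC00265 among them, and read 9.35 and 9.39 against 9.99, 9.99 and 9.95 (difference 0.61, SE 0.07, adjusted p = 0.016). Of the 4 calls among named genes with placeholders, LOC344967/ACOT7, an acyl-CoA thioesterase, fell by 0.56, LOC728554/THOC3, a subunit of the mRNA export complex THO, fell by 0.40, and 2 probes of LOC105379252/FAM95B1 with identical values rose by 0.56.

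Whether a shared probe changed like a probe of its own gene was tested within arrays, on the log2 difference of the 2 probes. Of 2175 symbols named, 452 also have a probe of their own, which gave 1242 pairs over 713 of the shared probes. In 26 pairs (2.09%), from 22 shared probes of 10 families, the 2 changes differed at an adjusted p under 0.05. Among pairs of probes that both name exactly 1 gene it was 11 of 1535 (0.717%), and 37 of 2800 over all pairs (1.32%). At an unadjusted p under 0.05 it was 259 (20.9%) against 195 (12.7%). Both probes were above background on all arrays in 15 of the 26, and the companion was below it on all arrays in 10. Without either control array, SB216763 replicate 1 or SB216763 replicate 3, 0 of the 1242 pairs were called, and without SB216763 replicate 2 there were 31.

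The widest gap was at LOC441081, a POM121-like locus related to a nuclear pore protein. The shared probe POM121L10P/LOC441081/POM121L4P/POM121L8P/POM121L9P/POM121L1P differed by 0.09 (SE 0.08). The 5 probes of LOC441081 alone differed by 1.67 to 1.93, and probe 8105987 read 8.66 and 8.63 in controls and 10.60, 10.55 and 10.58 with SB216763. Each of the 5 gaps passed, at -1.58 to -1.83 with adjusted p from 0.0086 to 0.016.

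A probe sharing the name of DNASE1L1, a nuclease gene next to RPL10, differed in the opposite direction from its companion. NDUFS5/SNORA70/RPL10/DNASE1L1, which also names a subunit of mitochondrial complex I, read 11.81 and 11.95 in controls and 11.44, 11.41 and 11.58 with SB216763 (difference -0.40, SE 0.09, adjusted p = 0.068). DNASE1L1 alone read 7.06 and 7.13 against 7.82, 7.71 and 7.75 (difference 0.67, SE 0.08, adjusted p = 0.016). The gap of -1.07 passed (SE 0.08, adjusted p = 0.016), while that of RPL10/SNORA70/DNASE1L1 to the same companion was -0.48 (adjusted p = 0.051).

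In HERC2, all 5 probes shared with pseudogenes changed more than the probe of HERC2 alone, which read 8.92 and 8.97 in controls and 9.09, 9.11 and 9.16 with SB216763 (difference 0.17, SE 0.07, adjusted p = 0.25). The gaps were 0.54 to 0.64, with adjusted p from 0.027 to 0.038. SNHG32/SVIL exceeded SVIL alone (7.61 and 7.67 against 7.85, 7.73 and 7.87, difference 0.18) by 0.89 (SE 0.07, adjusted p = 0.016). RPL41P5/RPL41 on probe 8061364 read 12.09 and 12.30 in controls and 12.61, 12.63 and 12.57 with SB216763, and RPL41 alone read 7.50 and 7.73 against 7.48, 7.58 and 7.53. The gap was 0.50 (SE 0.06, adjusted p = 0.038).

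MIR664B/SNORA36A/DKC1 was below background on all arrays, while DKC1 alone read 10.22 and 10.18 in controls and 9.62, 9.49 and 9.71 with SB216763 (difference -0.60, SE 0.09, adjusted p = 0.027). The pair was called, but a probe below background cannot show a fall, so the gap has no size to report. The called GUSBP pair, to GUSB alone, had a gap of 0.41 (SE 0.05, adjusted p = 0.0495). The remaining called pairs set ANKRD20A, LRRC37A and OR7E85BP/OR7E91P probes against ANKRD20A5P, LRRC37A6P and OR7E91P, each below background on all arrays, so that the change of the companion was not measured there. Probes of a snoRNA and its host otherwise had no gap that passed, at widths that varied. SNORD6/TAF1D changed by 0.71 less than TAF1D alone (SE 0.11, adjusted p = 0.075), and SNORD73A/RPS3A had gaps of -0.47 to -0.33 to 5 probes of RPS3A, a ribosomal protein of the small subunit (adjusted p from 0.083 to 0.18). SNORA4/EIF4A2, which names a translation helicase, had a gap of -0.68 to a probe of EIF4A2 (adjusted p = 0.12) and of 0.01 to another, and SNORA31/TPT1 of 0.62 (adjusted p = 0.17) and 0.03 to 2 probes of TPT1. SNORA33/RPS12 had a gap of 0.65 to SNORA33 alone (SE 0.18, adjusted p = 0.19). SNORD68/RPL13, SNORA64/RPS2 and SNORD36A/SNORD36C/RPL7A differed from their companions by at most 0.09.

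Marker genes were read beside these results. All arrays correlated at r between 0.989 and 0.996 over all probes. Of the B cell precursor markers, 4 of 13 measured genes were above background on all arrays and 8, CD22, CD24, DNTT, EBF1, MME, RAG1, RAG2 and VPREB1, on none, and their summed log2 level was 72.4 to 72.6 in controls and 71.7 to 72.8 with SB216763. Myeloid markers summed to 48.0 to 48.3 in controls and 50.1 to 50.5 with SB216763, with 5 of 6 above background on all arrays and LYZ (0.78) and CSF3R (1.23) called higher. The other 4 measured were not called, with differences of -0.23 for MPO, -0.00 for CD14, 0.11 for CSF1R and 0.27 for ITGAM. T cell markers were below background throughout (4 of 4). HBA2/HBA1, alpha-globin, read 7.29 and 7.26 in controls and 7.26, 7.57 and 7.20 with SB216763 on both of its probes (difference 0.07, SE 0.13), and 1 of 3 erythroid genes was above background on all arrays. The part of LYZ and CSF3R, or of the cells they mark, in the calls above was not tested.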

How the data were processed

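Total RNA of RS4.11 cells, 2 control and 3 SB216763 arrays grouped by sample title, was measured on Affymetrix whole-transcript arrays. The authors deposited a single table of log2 values for all arrays, made with Affymetrix Expression Console per the submitters' processing notes. How oligonucleotides were summarised is not given in the sources used here, nor is a build or version. No further normalization was applied, and the number of arrays limits the precision.

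Probes were named through the platform annotation, and sorted by symbol and by RefSeq gene position (GRCh38.p14). Probes linked by a shared symbol form a family. Names of paralogue copies share a stem of at least 3 leading characters, and also the number after it for generic roots such as ZNF and FAM. Linear models with moderated variances (limma 3.58.1, R 4.3.3, two-sided, 2.81 prior degrees of freedom) were fitted to all 33297 probes, with Benjamini-Hochberg adjustment over all probes and a threshold of 0.05. Pairs of probes were fitted likewise, leaving out 292 pairs of single-gene probes with identical values. Upstream sequences were aligned globally. Tables were made with pandas 2.3.3.

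In 10 simulations with 200 changed probes among 33297, the fit recovered 25.2% of 1.5-fold and 87.7% of 2-fold changes, and 6.18% of its calls were false. The simulated spreads were shuffled across probes. In the data 1907 probes were called, so the adjusted threshold is less strict there and these rates do not carry over.

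The members and lists were chosen with earlier results of these data known. Named probes were the 12 largest increases and 12 largest decreases among called probes whose groups did not overlap and which were above background on all arrays of a group, the 2 largest each way in each class of at least 5 probes, and the probes naming HSPA1A, HBA1, SNHG1, GAS5, SMN1, CCL3L1, H3C14, TNFSF12-TNFSF13 or EIF4A1. Other probes were named after their values were seen. Alternatives were other normalizations, variance models, array weights, filters, a replicate block, and leaving out each array.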

Additional observations from a re-analysis of the deposited data

How the results depend on the processing

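Calls depend on the variance model and on the arrays. Other variance models and probe filters leave the differences themselves unchanged, so they say nothing about direction. None of the 155 called probes changed sign under quantile normalization or median centring. Small differences did depend on single arrays: without control replicate 2, all treated values of CCL3L3/CCL3L1/CCL3 lay above the remaining control. The counts, higher and lower, were 215 and 75 with trend and robust settings, 247 and 90 with array weights, 222 and 79 with dim probes left out, 239 and 90 when only probes with a symbol were tested, and 7 and 0 without moderation. Quantile normalization gave 149 and 68, and median centring 102 and 47. Leaving out 1 array gave 0 to 115 higher and 0 to 20 lower.

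By class, calls in the order trend and robust settings, array weights, dim probes left out, symbol only and no moderation were 174, 190, 176, 185 and 3 for paralogue copies (99 in the main fit), 49, 61, 53, 58 and 0 for readthrough (30), 36, 43, 40, 43 and 4 for different names (15), and 31, 43, 32, 43 and 0 for the other classes (11). Quantile normalization gave 24 for different names and 17 for the other classes. Leaving out 1 array gave 0 to 96 for paralogue copies, 0 to 20 for readthrough, 0 to 12 for different names and 0 to 7 for the other classes. A stem of 4 characters moved no class by over 1.5 times. Called probe pairs numbered 17 with array weights, 0 without moderation, 28 with readthrough sides (added after seeing the data) and 0 to 31 without 1 array, against 26.

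With the replicate block, on the 2 numbers that both groups share, 0 probes were called higher by limma (255 at an unadjusted p under 0.05), 0 lower (114), 0 in any class and 0 pairs (187). Same-numbered arrays deviated with r of 0.00 and -0.05. With 2 controls, whose deviations mirror each other, these values cannot tell whether the numbers pair the arrays. Leaving out a control array leaves 1, assumed to vary like the treated arrays. With 5 arrays, 1.5-fold changes were often missed on simulated data, which held fewer changed probes than were called here. Background was not reached on any array by 460 probes.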
